A study of Rattus norvegicus with 8 samples.

Results

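The genes described here are 9 core genes of the circadian clock: Clock, the period genes Per1, Per2 and Per3, the cryptochromes Cry1 and Cry2, the nuclear receptor genes Nr1d1 and Nr1d2, and Dbp. They were chosen by name from the 30560 genes of the deposited list, and all 9 had an entry. Their RNA was counted nucleus by nucleus in nodose ganglia, where vagal sensory neurons have their cell bodies, taken from untreated Long Evans rats aged 8 weeks. There were 18 male and 18 female rats. Each pool held the ganglia of 1 side from 6 rats, and each combination of labelled sex and side had 3 pools, so that 12 pools are the replicates. A pool's code gives its labelled sex (M or F), its side (L or R) and its number, as in FR2. All groups had isoflurane anaesthesia and decapitation before the ganglia were frozen. The rats carried no transgene or treatment that the labels name. Each pool is a mixture, so differences between single rats cannot be seen. The hour of the day at which ganglia were collected is not given in the sources used here. With 18 rats per sex, left and right pools of a sex draw on the same rats, so the 12 pools are not all independent animals. P-values for side and labelled sex are set against the spread between pools. Those between cell classes or neuron types are set against how the difference varies from pool to pool.

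The mammalian clock is a loop of transcription and repression that runs in most cells. CLOCK pairs with BMAL1 (gene Arntl in these files) or NPAS2 and activates the Per and Cry genes, whose proteins then enter the nucleus and repress their own activators. A second loop runs through REV-ERBα and REV-ERBβ, the products of Nr1d1 and Nr1d2, which repress Arntl, while ROR receptors activate it. DBP is an output factor that binds D-box elements. Per1 is also known as a gene that glucocorticoids and cyclic AMP signalling induce quickly.

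The matrix held 36741 nuclei with 139965360 unique molecular identifiers (UMIs, counted RNA molecules), between 7139364 and 19456287 per pool, and no cell barcode was shared between pools. Nuclei were clustered without the clock and clock pathway genes and named by likeness to marker lists. Neurons numbered 24937, satellite glia (the glia that wrap neuronal cell bodies) 3441, myelinating Schwann cells 1638 and endothelial cells 803, with at least 22 nuclei of each class in every pool. These names stand for neuron-like and so on throughout. Levels are CPM, the UMIs of a gene scaled to the total UMIs of a class in a pool (on edgeR's normalised library sizes), given with the SD over 12 pools. Levels of nodose-like and jugular-like neurons were normalised in a fit of their own. Those of neuron subclusters, summed marker lists, classes summed over all pools and unnamed nuclei were scaled to raw total UMIs. Levels are therefore not on one scale between these sets. The sex genes of pools ML1 and FL1 went against their labels: summed Y-linked RNA was 2.88 CPM in ML1, while the remaining 5 male-labelled pools ranged from 84.4 to 91.3 CPM. FL1 had 88.6 CPM, while the remaining 5 female-labelled pools ranged from 2.73 to 3.95 CPM. Every comparison was therefore repeated without both, and the labels are written as male-labelled and female-labelled.

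Satellite glia and neurons were not cleanly separated by the neuron markers. All 13 listed neuron markers were detected in every class, and their summed level had a median of 11931 CPM in neurons (10820 to 13303), 9768 CPM in satellite glia (8401 to 11168), 3856 CPM in myelinating Schwann cells (2664 to 4951) and 5476 CPM in endothelial cells (3718 to 6569). The 9 measured satellite glia markers summed to a median of 3222 CPM in satellite glia (2733 to 3817) and 214 CPM in neurons (144 to 293), but also to 2737 CPM in myelinating Schwann cells (2362 to 3144) and 1662 CPM in endothelial cells, so they hardly separated the 2 glial classes. The 9 measured myelinating Schwann markers summed to 13271 CPM in their own class, 1272 CPM in satellite glia, 1565 CPM in endothelial cells and 425 CPM in neurons, and the 8 endothelial markers to 2719 CPM in theirs and 87.7 CPM in neurons. In the endothelial class, mural cell markers were also raised, at 1638 CPM against 96.9 CPM in neurons, and in the myelinating Schwann class fibroblast markers were at 2939 CPM, against 129 CPM in neurons, 789 CPM in satellite glia and 1154 CPM in endothelial cells. The part of these other cell types in the class differences below was not tested.

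Promoters from RefSeq (build GRCr8, 250 bases before to 50 after the start) were matched by symbol for 8 of the 9 genes, with 10 promoters in all. The first 3 below belong to Per1, Per3 and Nr1d2, which were called higher than in neurons in all 3 other classes, and the others to Per2 and Nr1d1, which hold matches to clock motifs. Per1 is at chr10:54304126-54304425 (plus strand), Per3 at chr5:166777751-166778050 (minus strand), Nr1d2 at chr15:9954784-9955083 (plus strand), Per2 at chr9:99496944-99497243 (minus strand), and the 2 starts of Nr1d1 at chr10:84231763-84232062 and chr10:84229405-84229704 (both minus strand). Capitals mark the motif letters on the printed strand.
Per1: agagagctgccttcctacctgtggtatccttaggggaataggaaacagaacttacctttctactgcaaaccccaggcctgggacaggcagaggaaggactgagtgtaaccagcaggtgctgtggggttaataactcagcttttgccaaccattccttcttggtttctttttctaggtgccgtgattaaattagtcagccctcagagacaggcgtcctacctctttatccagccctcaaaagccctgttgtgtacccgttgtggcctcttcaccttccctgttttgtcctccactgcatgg
Per3: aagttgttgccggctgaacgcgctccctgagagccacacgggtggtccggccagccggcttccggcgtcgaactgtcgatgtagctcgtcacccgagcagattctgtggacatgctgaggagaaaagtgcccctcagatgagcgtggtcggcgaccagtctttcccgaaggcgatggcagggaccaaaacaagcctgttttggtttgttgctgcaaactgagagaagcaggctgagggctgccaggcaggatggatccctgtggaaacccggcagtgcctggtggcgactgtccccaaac
Nr1d2: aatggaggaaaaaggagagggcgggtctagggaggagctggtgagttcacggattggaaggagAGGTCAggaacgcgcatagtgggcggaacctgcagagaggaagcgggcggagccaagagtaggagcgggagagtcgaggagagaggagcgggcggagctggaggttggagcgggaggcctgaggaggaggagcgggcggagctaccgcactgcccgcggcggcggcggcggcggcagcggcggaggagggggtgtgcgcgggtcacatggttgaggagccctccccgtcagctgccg
Per2: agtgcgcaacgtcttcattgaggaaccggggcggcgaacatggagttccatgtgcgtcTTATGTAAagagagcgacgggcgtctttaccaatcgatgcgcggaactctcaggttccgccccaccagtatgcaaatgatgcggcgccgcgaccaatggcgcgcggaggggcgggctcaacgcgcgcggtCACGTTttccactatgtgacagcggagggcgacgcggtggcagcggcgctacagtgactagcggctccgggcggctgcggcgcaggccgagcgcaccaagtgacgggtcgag
Nr1d1, upstream start: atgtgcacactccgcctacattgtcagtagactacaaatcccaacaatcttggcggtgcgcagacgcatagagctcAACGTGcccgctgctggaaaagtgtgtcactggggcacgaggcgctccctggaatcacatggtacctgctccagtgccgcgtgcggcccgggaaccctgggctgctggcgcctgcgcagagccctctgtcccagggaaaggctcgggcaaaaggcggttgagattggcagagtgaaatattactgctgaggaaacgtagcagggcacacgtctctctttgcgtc
Nr1d1, downstream start: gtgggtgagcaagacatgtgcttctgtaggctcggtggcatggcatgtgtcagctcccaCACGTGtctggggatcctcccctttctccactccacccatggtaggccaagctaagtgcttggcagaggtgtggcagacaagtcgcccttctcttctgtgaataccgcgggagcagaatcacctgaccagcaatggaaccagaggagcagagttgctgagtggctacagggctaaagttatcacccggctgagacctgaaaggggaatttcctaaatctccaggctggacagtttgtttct

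Motifs were searched on both strands as CACGTG, the E-box that CLOCK and BMAL1 bind, CACGTT, a variant of it, TTATGTAA, a D-box that DBP and its relatives bind, and AGGTCA, the core of the elements of ROR and REV-ERB receptors. No 2 of these overlapped in the printed sequences. CACGTG was in 6.42% of all 33469 RefSeq promoters and in 1 of the 10 clock gene promoters, that of the downstream start of Nr1d1, beginning 191 bases before the start. CACGTT was in 4.83% of all promoters and in 3 of the 10: Per2, 62 bases before the start; the upstream start of Nr1d1, 174 bases before it and read as AACGTG on the printed strand; and Cry2, 212 bases before it. TTATGTAA was in 0.893% of all promoters and in Per2, 192 bases before the start. AGGTCA was in 16.2% of all promoters and in Nr1d2, 187 bases before the start. Reads of Nr1d1 and of Thra, which overlap in the RefSeq table, cannot be told apart, as the strand used in counting is not given in the sources used here, and the same holds for the uncharacterised entries that overlap Cry1, Cry2, Per2 and Clock. The windows of Per1, Per3, Dbp and both starts of Clock held none of the 4 motifs, which says only that these letters are not in these 300 bases.

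On the CPM scale, Per1, Per3 and Nr1d2 RNA was higher in each of the 3 non-neuronal classes than in neurons, while Clock and Cry2 were near the neuronal level in all of them. Among the 7 genes tested below, Per1 showed the largest difference: it was 2.53 times the neuronal mean in satellite glia, 3.41 times in endothelial cells and 4.83 times in myelinating Schwann cells. Of the 7 clock genes abundant enough for the test, 3 were called higher in satellite glia, 6 in myelinating Schwann cells and 4 in endothelial cells, and none lower, where called means an adjusted p under 0.05 in edgeR's quasi-likelihood test over 8732 genes. Of all genes, 77.9% were called in satellite glia against neurons (39.8% higher), 76.4% in myelinating Schwann cells (39.8% higher) and 65.6% in endothelial cells (34.7% higher). The shares of clock genes called, 3 of 7, 6 of 7 and 4 of 7, are thus to be read against backgrounds where most genes differed. The median log2 fold change of the 7 was 0.05, 0.58 and 0.41 in the same order, beside 0.02, 0.04 and 0.05 over all genes.

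**Figure D1:**
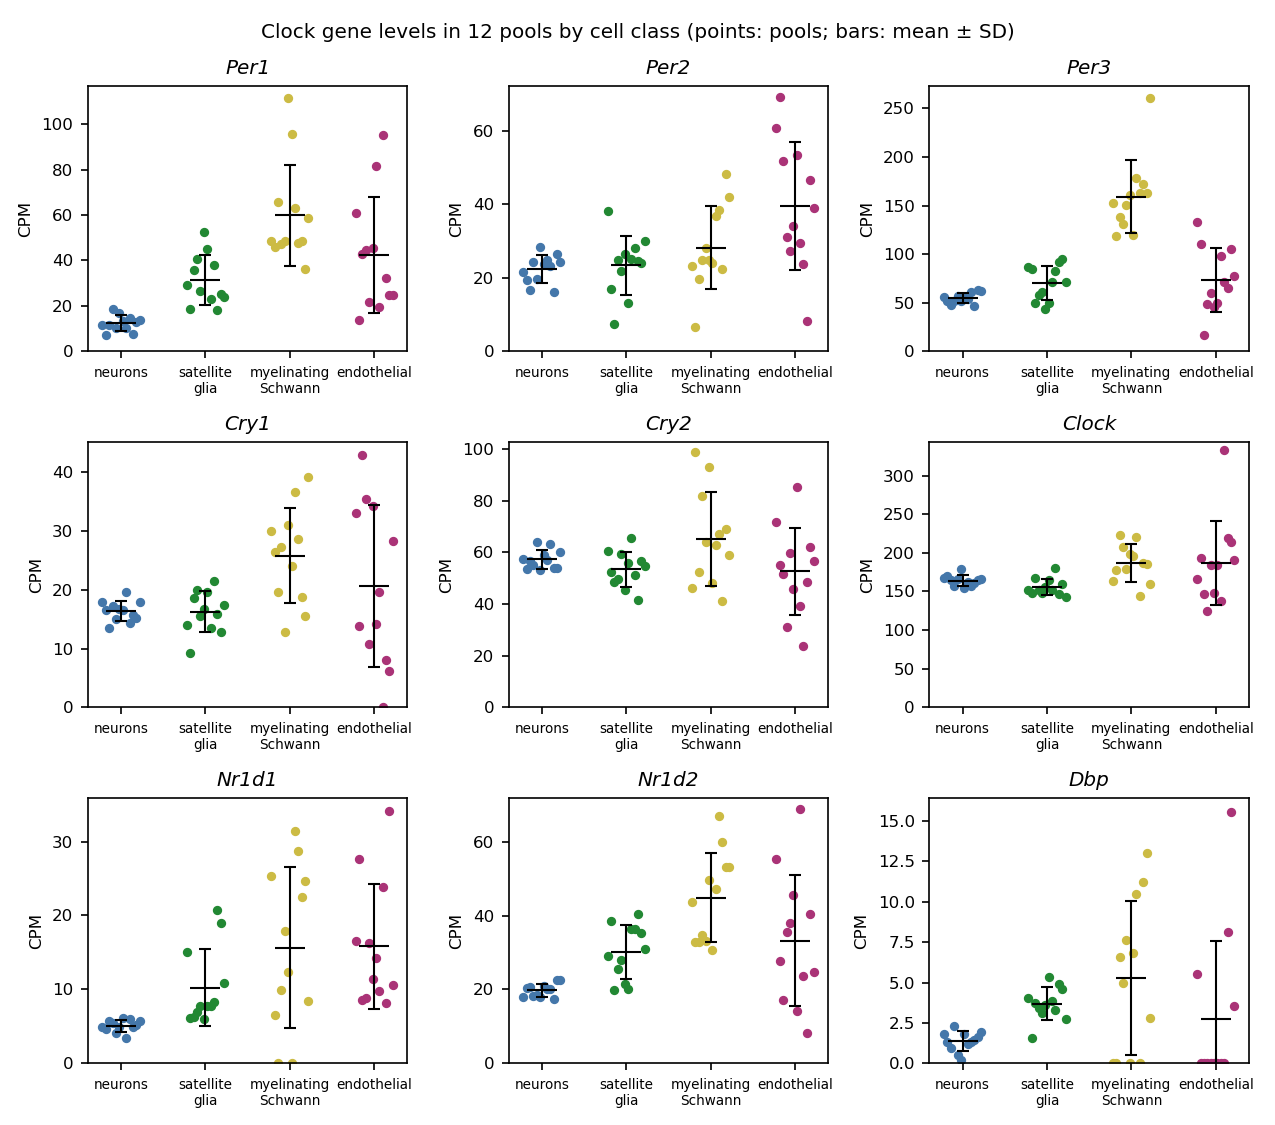
Level of each clock gene (CPM, vertical axes from 0) in the 4 cell classes, with 1 point per pool and a bar for the mean ± SD over 12 pools. Per1 points of myelinating Schwann cells all lie above those of neurons, while Clock and Cry2 points of the classes overlap.

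The activator Clock, a histone acetyltransferase and DNA-binding partner of BMAL1 (ENSRNOG00000002175), was nearly even across classes. Its level was 154 to 179 CPM in neurons (median 165; mean 164 ± 6.73, SD, n = 12), 143 to 180.0 CPM in satellite glia (median 152; 156 ± 10.6), 144 to 223 CPM in myelinating Schwann cells (median 187; 187 ± 24.1) and 124 to 333 CPM in endothelial cells (median 185; 187 ± 54.9). The ranges of all 4 classes overlapped. Clock was called higher in myelinating Schwann cells (log2 fold change 0.19 ± 0.07, SE; edgeR adjusted p = 0.0101), and was not called in satellite glia (-0.08 ± 0.05, adjusted p = 0.152) or endothelial cells (0.15 ± 0.08, adjusted p = 0.112). The Schwann call was lost with DESeq2's size factors (0.13, adjusted p = 0.0677), with DESeq2 (adjusted p = 0.0786) and at a coarser clustering (adjusted p = 0.053), and without the low-count filter the sign turned (-0.07, adjusted p = 0.55). In UMIs per 1000 nuclei, Clock in myelinating Schwann cells was 0.738 times the neuronal value, so its direction depended on the scale. Clock was called higher in endothelial cells without MR1 (0.19, adjusted p = 0.0407), and lower in satellite glia at the coarser clustering (-0.16, adjusted p = 0.00408) and without the low-count filter (-0.22, adjusted p = 0.00066).

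Per1, a repressor of CLOCK and BMAL1 (ENSRNOG00000007387), had the widest spread over classes. It was at 7.31 to 18.7 CPM in neurons (median 12.3; mean 12.4 ± 3.38, n = 12), 18.3 to 52.7 CPM in satellite glia (median 27.8; 31.4 ± 10.97), 13.8 to 95.1 CPM in endothelial cells (median 37.7; 42.3 ± 25.5) and 36.4 to 112 CPM in myelinating Schwann cells (median 48.6; 59.9 ± 22.3). In all 12 pools each of the 3 classes was above the neurons of the same pool, and the Schwann range lay wholly above the neuronal one. The log2 fold change over neurons was 1.31 ± 0.10 in satellite glia (edgeR adjusted p = 7.6e-19), 2.17 ± 0.14 in myelinating Schwann cells (adjusted p = 1.3e-22) and 1.69 ± 0.20 in endothelial cells (adjusted p = 3.0e-11). These 3 calls held under every alternative computed. Per nucleus the ratios were 3.08 in satellite glia, 3.09 in myelinating Schwann cells and 2.45 in endothelial cells.

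Per3, the third period gene (ENSRNOG00000018413), was highest in myelinating Schwann cells. Neurons had 46.2 to 63.5 CPM (median 55.1; mean 54.9 ± 5.46, n = 12), satellite glia 43.2 to 94.9 CPM (median 71.0; 70.3 ± 17.9), endothelial cells 17.2 to 133 CPM (median 68.1; 73.5 ± 32.9) and myelinating Schwann cells 119 to 261 CPM (median 157; 159 ± 37.5). The Schwann values lay above all neuronal and all satellite glia values, while those of satellite glia and endothelial cells overlapped each other and the neurons. Log2 fold changes over neurons were 0.32 ± 0.08 in satellite glia (edgeR adjusted p = 0.00021), 1.51 ± 0.10 in myelinating Schwann cells (adjusted p = 2.8e-23) and 0.41 ± 0.15 in endothelial cells (adjusted p = 0.0161). The endothelial call was lost without ML1 (0.29, adjusted p = 0.108), without FR2 (0.35, adjusted p = 0.0667), without ML1 and FL1 together (adjusted p = 0.0612) and without the low-count filter (0.09, adjusted p = 0.73). Per nucleus, endothelial Per3 was 0.959 times the neuronal value.

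Per2, the partner of Per1 in repression (ENSRNOG00000020254), differed less. It was at 16.02 to 28.4 CPM in neurons (median 23.5; mean 22.4 ± 3.79, n = 12), 7.44 to 38.3 CPM in satellite glia (median 24.7; 23.4 ± 8.01), 6.59 to 48.1 CPM in myelinating Schwann cells (median 24.8; 28.2 ± 11.3) and 8.11 to 69.0 CPM in endothelial cells (median 36.5; 39.5 ± 17.3). Ranges overlapped in all classes, and 11 of 12 pools had more in endothelial cells than in their own neurons. Per2 was called higher in endothelial cells (0.84 ± 0.20, edgeR adjusted p = 0.00015) and in myelinating Schwann cells (0.43 ± 0.17, adjusted p = 0.0175), and not in satellite glia (0.05 ± 0.11, adjusted p = 0.709). The Schwann call rested on single pools: it was lost without FR2 (0.28, adjusted p = 0.182) or FR3 (0.37, adjusted p = 0.0544), with DESeq2 (0.34, adjusted p = 0.0649), with nuclei of at least 1000 genes (0.27, adjusted p = 0.185) and without the low-count filter (0.18, adjusted p = 0.409), and per nucleus the ratio was 0.803.

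The cryptochromes are the strongest repressors of the loop. Cry1 (ENSRNOG00000006622) was at 13.6 to 19.7 CPM in neurons (median 16.6; mean 16.4 ± 1.71, n = 12), 9.27 to 21.5 CPM in satellite glia (median 16.3; 16.2 ± 3.48), 0 to 43.0 CPM in endothelial cells (median 16.9; 20.6 ± 13.8) and 12.8 to 39.3 CPM in myelinating Schwann cells (median 26.8; 25.8 ± 8.10). Its Schwann level was above that of neurons in 11 of 12 pools and was called (0.58 ± 0.17, edgeR adjusted p = 0.00143), a call lost without the low-count filter (0.33, adjusted p = 0.117). Per nucleus that ratio was 0.988. Cry1 was not called in satellite glia (0.01 ± 0.11) or endothelial cells (0.34 ± 0.23). Cry2 (ENSRNOG00000007478) was at 53.1 to 64.0 CPM in neurons (median 56.7; 57.2 ± 3.73), 41.6 to 65.3 CPM in satellite glia (median 53.5; 53.4 ± 6.68), 41.2 to 98.9 CPM in myelinating Schwann cells (median 63.4; 65.3 ± 18.2) and 23.8 to 85.3 CPM in endothelial cells (median 53.4; 52.6 ± 16.9). No class differed from neurons in Cry2 by the main test, with log2 fold changes of -0.10 ± 0.07, 0.15 ± 0.10 and -0.01 ± 0.13 in satellite glia, myelinating Schwann cells and endothelial cells. Cry2 was called lower in satellite glia without the low-count filter (-0.24, edgeR adjusted p = 0.0038) and higher in myelinating Schwann cells without ML1 and FL1 (0.24, adjusted p = 0.038). A missed threshold does not show that the levels were equal.

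Nr1d2, which encodes REV-ERBβ (ENSRNOG00000046912), was above the neuronal level in the other classes. Neurons had 17.4 to 22.6 CPM (median 20.1; mean 19.8 ± 1.77, n = 12), satellite glia 19.8 to 40.4 CPM (median 30.1; 30.2 ± 7.32), endothelial cells 8.11 to 68.8 CPM (median 31.6; 33.3 ± 17.7) and myelinating Schwann cells 30.8 to 67.1 CPM (median 45.5; 44.9 ± 12.1). The Schwann range lay above the neuronal range, and the satellite glia exceeded their own neurons in 10 of 12 pools. Log2 fold changes over neurons were 0.57 ± 0.10 (edgeR adjusted p = 2.9e-07), 1.15 ± 0.14 (adjusted p = 3.1e-11) and 0.71 ± 0.20 (adjusted p = 0.00155) in satellite glia, myelinating Schwann cells and endothelial cells. The endothelial call was lost without the low-count filter (0.39, adjusted p = 0.116).

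Nr1d1, which encodes REV-ERBα (ENSRNOG00000009329), and the output gene Dbp (ENSRNOG00000021027) were too sparse for the main class test. Nr1d1 was at 3.41 to 6.12 CPM in neurons (median 5.07; mean 5.09 ± 0.789, n = 12), 5.99 to 20.8 CPM in satellite glia (median 7.74; 10.2 ± 5.20), 0 to 31.5 CPM in myelinating Schwann cells (median 15.1; 15.7 ± 10.9) and 8.11 to 34.2 CPM in endothelial cells (median 12.8; 15.8 ± 8.45). The endothelial range lay above the neuronal range, and satellite glia exceeded their own neurons in 12 of 12 pools. Dbp was at 0.212 to 2.31 CPM in neurons (median 1.38; 1.37 ± 0.607) and 1.54 to 5.34 CPM in satellite glia (median 3.66; 3.68 ± 1.01), again higher in 12 of 12 pools. Only 24 Dbp UMIs were seen in myelinating Schwann cells (up to 12.996 CPM, 4 pools with none) and 8 in endothelial cells (0 to 15.5 CPM, 8 pools with none). Fitted without the low-count filter, over 23259 genes, Nr1d1 was called higher in satellite glia (0.88 ± 0.15), myelinating Schwann cells (1.37 ± 0.22) and endothelial cells (1.30 ± 0.29). Dbp was called in satellite glia (1.18 ± 0.26) and myelinating Schwann cells (1.76 ± 0.37) and not in endothelial cells (1.00 ± 0.57, edgeR adjusted p = 0.184). The clock genes tested in both fits shifted in that fit by a median log2 value of -0.14 in satellite glia, -0.25 in myelinating Schwann cells and -0.32 in endothelial cells. The values of Nr1d1 and Dbp are thus not on the scale of the filtered fit.

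**Figure D2:**
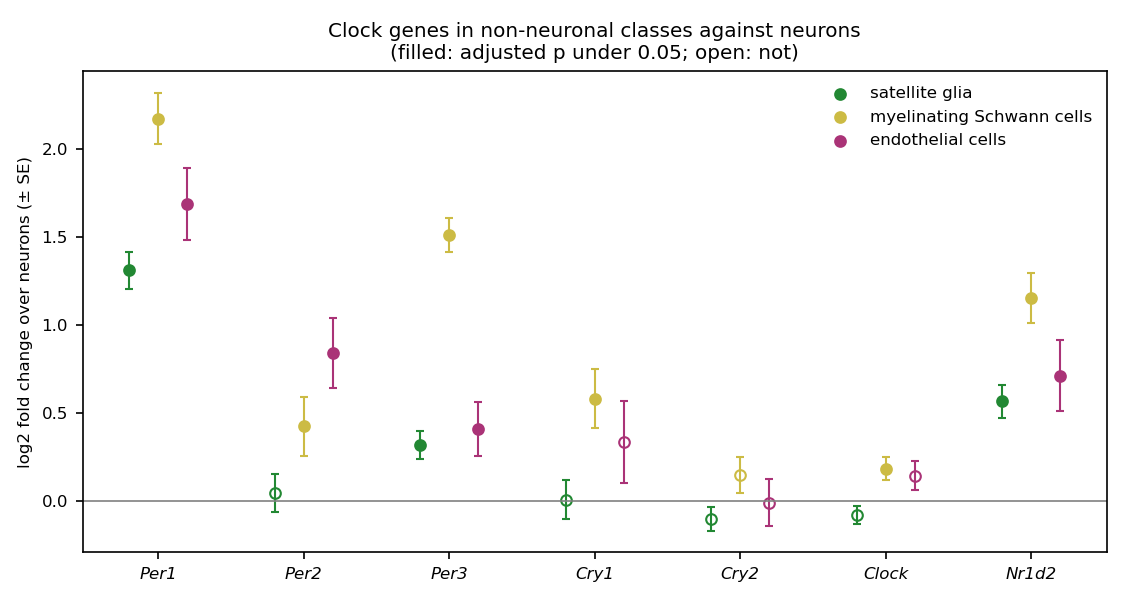
Log2 fold change over neurons (vertical axis, ± SE, edgeR) of the 7 tested clock genes in satellite glia, myelinating Schwann cells and endothelial cells, with filled points for an adjusted p under 0.05. Per1 lies highest in each class, from 1.31 to 2.17, and Cry2 is open in all 3.

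Between the 2 glial classes, 6 of the 7 genes were called higher in myelinating Schwann cells than in satellite glia, where 61.7% of all genes were called and 30.6% were called higher. Log2 fold changes were 1.19 ± 0.11 for Per3, 0.86 ± 0.14 for Per1, 0.59 ± 0.15 for Nr1d2, 0.57 ± 0.19 for Cry1, 0.26 ± 0.07 for Clock and 0.25 ± 0.11 for Cry2. Per2 missed the threshold (0.38 ± 0.18, edgeR adjusted p = 0.0632). Without the low-count filter only Per1, Per3 and Nr1d2 kept the call. Cry2 (adjusted p = 0.0477) was called in 7 of 21 alternatives and is not separable from the threshold. These calls are on the CPM scale, and the total UMIs per nucleus were lower in myelinating Schwann cells. Per 1000 nuclei, Per3 alone of the 6 was above satellite glia there (357 against 296 UMIs), Per1 was at 135 UMIs in both, and the others were lower: Nr1d2 at 101 against 127 UMIs, Cry1 at 57.1 against 70.0, Clock at 423 against 663 and Cry2 at 145 against 226. On CPM, from lowest to highest mean, the order of classes was neurons, satellite glia, endothelial cells and myelinating Schwann cells for Per1, Per3 and Nr1d2. Endothelial cells and satellite glia lay within 1 SD of each other in these 3 genes, with no test made. Per 1000 nuclei the order changed: Nr1d2 ran from neurons (69.7 UMIs) to endothelial cells (85.1), myelinating Schwann cells and satellite glia, and Per3 was lower in endothelial cells (186 UMIs) than in neurons (194). For Per2 the order on CPM was neurons, satellite glia, myelinating Schwann cells and endothelial cells, and only the last was called against neurons under every alternative. For Cry1, Cry2 and Clock most neighbours lay within their spread.

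Of 25 other clock pathway genes listed, 24 were in the files and 14 passed the filter of the class test. In satellite glia 13 of the 14 were called (10 higher, 3 lower), in myelinating Schwann cells 11 (7 higher, 4 lower) and in endothelial cells 11 (8 higher, 3 lower), with median log2 fold changes of 0.29, 0.38 and 0.62. Of all genes, 77.9%, 76.4% and 65.6% were called in the same order, so most genes differed there too. Rora, an activating ROR receptor, had the smallest p in each: 1.80 ± 0.09 in satellite glia, 3.19 ± 0.09 in myelinating Schwann cells and 3.16 ± 0.09 in endothelial cells. Tef, a relative of Dbp, was higher by 1.10 ± 0.07, 1.69 ± 0.09 and 0.93 ± 0.14 in the same order, and Npas2, which can replace CLOCK, by 1.24 ± 0.16, 1.00 ± 0.29 and 2.54 ± 0.26. Arntl, named in satellite glia after its values were seen, was higher by 0.30 ± 0.07, 0.78 ± 0.10 and 0.99 ± 0.12. Usp2, a deubiquitinase, was higher by 1.03 ± 0.14 in satellite glia and 1.86 ± 0.19 in myelinating Schwann cells, and the deacetylase gene Sirt1 by 0.51 ± 0.11, 1.25 ± 0.15 and 0.76 ± 0.22 in the 3 classes. Lower in all 3 were Arntl2 (-1.78 ± 0.13, -1.70 ± 0.22 and -1.87 ± 0.30), the ubiquitin ligase subunit gene Btrc (-0.38 ± 0.05, -0.38 ± 0.07 and -0.49 ± 0.09) and the kinase gene Gsk3b (-0.28 ± 0.05, -0.24 ± 0.06 and -0.29 ± 0.07).

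Because Per1 responds to stimuli, 18 stimulus-responsive genes were counted beside it, of which 16 were in the files and 10 passed the filter. The shares of all genes called were 77.9% in satellite glia, 76.4% in myelinating Schwann cells and 65.6% in endothelial cells. In satellite glia 9 of 10 were called (7 higher, 2 lower; median log2 fold change 0.93), in myelinating Schwann cells 10 of 10 (9 higher, 1 lower; median 1.73) and in endothelial cells 9 of 10 (8 higher, 1 lower; median 1.84). Fos and Egr1, early genes induced within minutes to hours of a stimulus, were among the higher ones, at 0.95 ± 0.29 and 2.32 ± 0.19 in satellite glia and 2.98 ± 0.43 and 3.83 ± 0.30 in endothelial cells. These 2 were named after their values were seen. The part of such a response in the Per1 levels was not tested.

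Classes with fewer than 20 nuclei in some pools were summed over all pools, with exact 95% Poisson intervals that cover counting error only. Per1 was at 41.6 CPM (28.3 to 59.1) in 287 mural cells, 20.5 CPM (14.6 to 27.9) in 697 skeletal muscle nuclei, of which 68.9% came from FR2, and 50.1 CPM (25.0 to 89.6) in 148 fibroblasts. Per3 was at 86.0 CPM (66.2 to 110), 62.5 CPM (51.9 to 74.7) and 114 CPM (73.7 to 168) in the same order. Dbp had 2 UMIs in mural cells, 7 in muscle and 1 in fibroblasts. These sums have no replicates, and no comparison was made.

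Visceral and somatic kinds of vagal sensory neuron were compared next: nodose-like neurons, 10898 nuclei, which arise from an epibranchial placode and serve the viscera, and jugular-like neurons, 2719 nuclei, which arise from the neural crest. The other nuclei of the 24937 neurons had neither name and are outside this comparison. Cry1 was higher in the jugular-like neurons and Per3 was lower, and the other 6 clock genes tested were not called. Of all 11143 genes tested, 46% were called, so 2 of 8 clock genes is a lower share than that of all genes. Jugular markers summed to a median of 942 CPM in jugular-like and 107 CPM in nodose-like neurons, nodose markers to 40.6 and 322 CPM, and satellite glia markers to 236 and 125 CPM. The types were named from these same jugular and nodose lists, so their separation by them follows from the naming. Pool ML3 held only 24 jugular-like nuclei.

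Cry1 was at 9.71 to 15.7 CPM in nodose-like neurons (median 14.1; mean 13.6 ± 1.85, n = 12) and 14.7 to 37.3 CPM in jugular-like neurons (median 24.7; 26.7 ± 7.49). The ranges overlapped only through the lowest jugular-like pool, MR2. The log2 fold change was 0.88 ± 0.13 (edgeR adjusted p = 1.8e-07). Per3 was at 36.7 to 52.8 CPM in nodose-like neurons (median 46.4; 46.2 ± 4.33) and 0 to 49.4 CPM in jugular-like neurons (median 36.8; 35.6 ± 12.5), where the value of 0 was the small ML3 sum. Its log2 fold change was -0.28 ± 0.10 (adjusted p = 0.0174), and without MR2 the call was lost (-0.24, adjusted p = 0.0544). Clock (0.11 ± 0.07), Cry2 (0.12 ± 0.08), Per1 (0.07 ± 0.17), Per2 (-0.17 ± 0.15), Nr1d2 (-0.15 ± 0.15) and Nr1d1 (-0.16 ± 0.24) were not called, and Dbp was not tested. Of 16 pathway genes tested, 7 were called, 3 higher and 4 lower, where 46% of all genes were called. Rora was higher, with a log2 fold change of 2.27 ± 0.09, and Arntl lower (-1.09 ± 0.10), and Arntl2 (0.88 ± 0.10) and the repressor gene Bhlhe41 (0.75 ± 0.16) were also higher. Nampt (-0.55 ± 0.12), Btrc (-0.22 ± 0.06) and Csnk1d (-0.19 ± 0.07) were lower. Of the stimulus-responsive genes 4 of 8 were called, 3 higher and 1 lower.

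**Figure D3:**
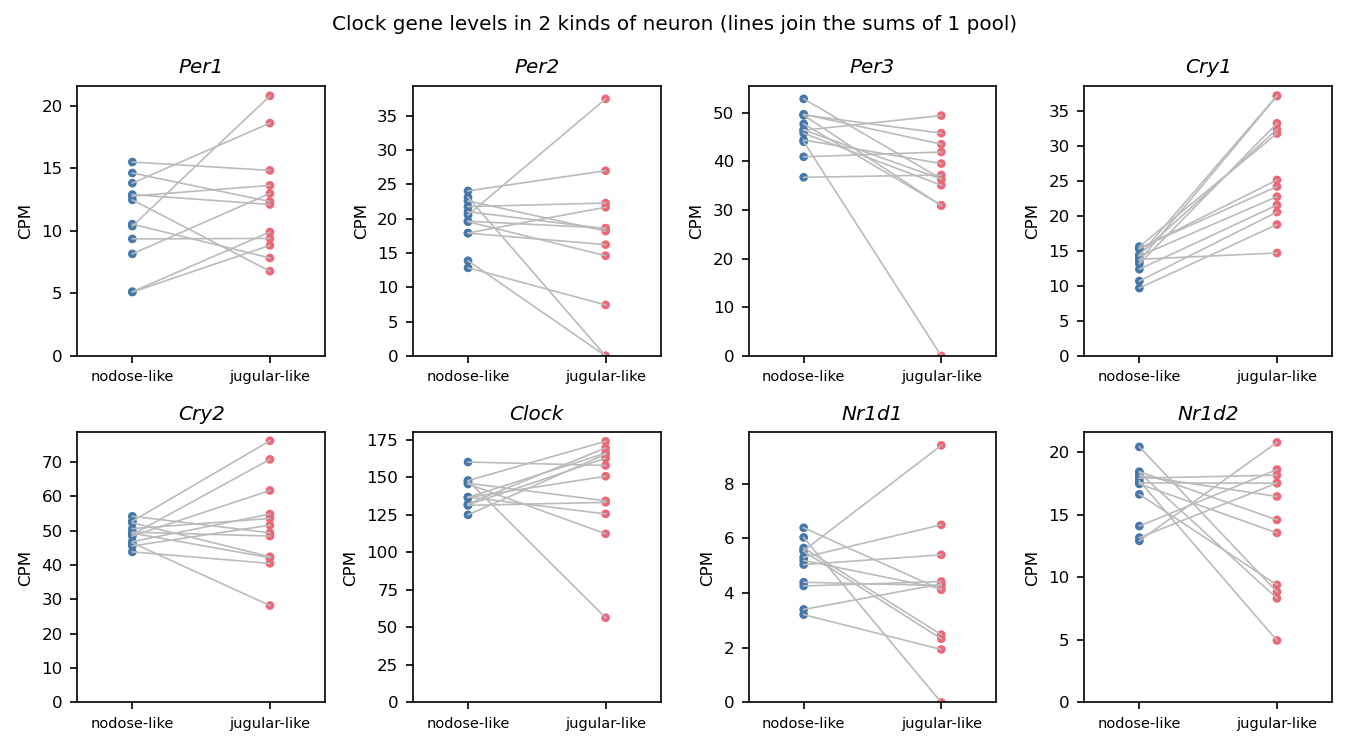
Level of 8 clock genes (CPM, vertical axes from 0) in nodose-like and jugular-like neurons, with a line joining the 2 sums of a pool. Cry1 rises in all 12 lines, from a mean of 13.6 to 26.7 CPM, and the Per3 value of 0 is pool ML3 with 24 jugular-like nuclei.

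Among neurons, levels were also described over the 14 subclusters that had at least 20 nuclei in every pool, named by their leading genes, and no test was made since clusters come from expression. Each of the 14 was nodose-like or had neither name, so jugular-like neurons are not in these orders. Per3 was highest in the subcluster led by Fhip1a, Col27a1 and Kirrel3 (71.8 ± 14.1 CPM, SD over 12 pools) and lowest in that led by Xylt1 and Sctr (25.4 ± 7.75 CPM), and the pool ranges of these 2 did not overlap (54.6 to 91.1 against 11.5 to 38.1 CPM). Cry1 had the opposite ends in part, being highest of the 14 in the Xylt1 and Sctr subcluster (19.9 ± 9.43 CPM). It was lowest in that led by Itgae, Ntsr1 and Gpr65 (7.45 ± 2.26 CPM), with overlapping ranges. In the jugular-like neurons left out here its mean was 26.7 CPM, on the scale of the neuron type fit. Per2 ran from 32.2 ± 8.45 CPM (led by Edn3 and Chrdl1) to 10.1 ± 6.70 CPM (Pcdh15 and Ndst4), and Per1 from 16.1 ± 8.86 CPM (Pappa2, Csmd3 and Nox4) to 5.61 ± 2.92 CPM (Cysltr2, Gdpd4 and Shisa6). Nr1d2 ran from 24.9 ± 15.8 to 12.2 ± 6.17 CPM and Nr1d1 from 7.67 ± 4.05 to 1.34 ± 2.51 CPM. Clock, at 172 ± 34.7 to 128 ± 9.25 CPM, and Cry2, at 61.6 ± 15.1 to 43.2 ± 10.1 CPM, varied least in proportion. Most neighbours in each order differed by less than their SDs. An exception was the lowest Per3 subcluster, whose neighbour, led by Itm2a, S1pr3 and Sez6l, was at 36.2 ± 8.67 CPM. Arntl, beside them, ran from 129 ± 28.0 CPM (Hmcn1, Agtr1a and Ntrk3) to 40.7 ± 14.1 CPM (Xylt1 and Sctr).

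Left and right ganglia, and ganglia of male-labelled and female-labelled rats, were the factors of the design. No clock gene was called for side or labelled sex in any class by edgeR's quasi-likelihood test, and none by DESeq2. In neurons, where all 9 were tested among 13959 genes, 0.15% of genes were called for side, 0.272% for labelled sex and 0% for their interaction. In satellite glia 8 clock genes were tested (0% of 10011 genes called for side and 0% for sex), in myelinating Schwann cells 6 (0.0474% of 6331 genes for side, 0% for sex) and in endothelial cells 2, Clock and Per3 (0% of 4485 genes for both). At an unadjusted p under 0.05, 0 clock genes passed for side in any class or for the interaction, 0 for sex in neurons and endothelial cells, 1 in satellite glia and 2 in myelinating Schwann cells. The share of all genes at this unadjusted threshold is not given here. Some tests pass it where nothing differs, so these counts are not read as a sex difference.

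In neurons the differences between sides were small. Per1 was at 7.31 to 14.5 CPM in left pools (median 11.7, n = 6) and 7.46 to 18.7 CPM in right pools (median 13.3), and the right over left log2 fold change was 0.14 ± 0.19. Clock was at 154 to 169 CPM in left and 157 to 179 CPM in right pools (0.02 ± 0.04). Over the 9 genes the fold changes ran from -0.10 for Dbp to 0.14 for Per1. Female-labelled over male-labelled changes ran from -0.04 for Clock to 0.38 for Dbp, whose SE was 0.36. The largest interaction estimate of a well-counted gene was that of Per1 (-0.69 ± 0.36, unadjusted p = 0.0736, edgeR adjusted p = 1.00). Right male-labelled pools held 18.7, 10.2 and 16.7 CPM of Per1, left ones 11.7, 7.31 and 11.7 CPM, right female-labelled pools 7.46, 12.9 and 13.7 CPM and left ones 13.5, 10.4 and 14.5 CPM.

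Outside neurons, the 3 genes under an unadjusted p of 0.05 were all higher in female-labelled pools and none passed adjustment. Nr1d1 in satellite glia was at 7.69 to 20.8 CPM in female-labelled pools (median 9.58) and 5.99 to 15.1 CPM in male-labelled ones (median 6.55), a difference of 0.65 ± 0.29 (edgeR adjusted p = 0.66). Per2 in myelinating Schwann cells was at 22.5 to 48.1 CPM (median 37.5) against 6.59 to 28.1 CPM (median 23.9), a difference of 0.67 ± 0.30 (edgeR adjusted p = 0.969). Per3 there was at 120 to 261 CPM (median 168) against 119 to 161 CPM (median 144), a difference of 0.30 ± 0.15 (edgeR adjusted p = 0.973). The groups overlapped in all 3. The male-labelled maximum of Nr1d1 was ML1, whose Y-linked RNA goes against its label. Without ML1 the Nr1d1 difference in satellite glia was 0.98, and without ML1 and FL1 it was 1.02 (edgeR adjusted p = 0.166), where the lowest female-labelled value (7.69 CPM) still lay below the highest male-labelled one (7.75 CPM). Leaving out both also moved the satellite glia differences of Per3 from 0.26 to 0.50 (adjusted p = 0.117) and of Per1 from -0.21 to -0.47, and that of Per3 in myelinating Schwann cells from 0.30 to 0.44. None of these passed adjustment. Of the pathway genes none was called for either factor, and the smallest p in neurons were those of Hlf for side (0.58, adjusted p = 0.683), Npas2 for sex (-0.57, adjusted p = 0.0824) and Csnk1e for the interaction (-0.27). In the other classes they were those of Arntl for side (-0.22) and Bhlhe40 for sex (0.68) in satellite glia, Csnk1d (-0.38) and Rora (0.25) in myelinating Schwann cells, and Gsk3b (-0.51) and Csnk1d (0.70) in endothelial cells.

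Although side and sex left the clock genes without a call, single pools differed from each other beyond counting error. In neurons the variance of Per1 over pools was 5.71 times that expected from counting, while over the 8 sublibraries, which mix all pools, it was 1.13 times. The same ratio over pools was 4.40 for Per3, 3.99 for Per2 and 1.775 for Dbp, beside a median of 1.95 over all genes tested. Expressed as a CV beyond counting, Per1 varied by 22.8% between pools, Per2 by 13.5% and Per3 by 9.16%. The CV of Dbp was 27.1%, but it rests on 127 UMIs in all, and its variance ratio lay below that median. Nr1d2 (6.03%), Cry2 (4.91%) and Cry1 (4.39%) lay below the median of 7.24% over 13959 genes. A higher value was found in 4.59% of genes for Dbp, 7.44% for Per1, 22.8% for Per2 and 39.0% for Per3. Clock and Nr1d1 varied no more than counting allows. In satellite glia the pool CV was 39.5% for Nr1d1, 28.0% for Per1, 26.3% for Per2, 23.4% for Per3 and 15.3% for Nr1d2, against a median of 6.29% over 10011 genes. The shares of genes with a higher value were 0.39%, 2.11%, 2.79%, 4.14% and 14.7%. Cry1, Cry2 and Clock showed no spread beyond counting there.

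In satellite glia the pools stood apart as follows. Per1 was at 52.7 CPM in MR3, 45.1 in FL1, 40.7 in MR1, 38.0 in FL3, 35.9 in ML3, 29.2 in ML1, 26.4 in MR2, 25.1 in FR2, 24.0 in FR3, 23.1 in FL2, 18.5 in ML2 and 18.3 in FR1. Per3 ran in nearly the opposite order, at 43.2 CPM in MR3, 49.3 in FL1, 49.6 in ML3, 58.0 in MR1, 61.0 in MR2, 70.9 in FR3, 71.1 in FL2, 82.5 in FL3, 85.0 in ML2, 86.6 in ML1, 91.7 in FR1 and 94.9 in FR2. Nr1d2 was lowest in ML3 (19.8 CPM), FL1 (20.2) and MR3 (21.6) and highest in FR1 (40.4), ML2 (38.6) and FL2 (36.5). Thus MR3, FL1 and ML3 were high in Per1 and low in Per3 and Nr1d2, and FR1 and ML2 were the reverse. Nr1d1 was at 20.8 CPM in FR1, 19.0 in FR2, 15.1 in ML1 and 10.9 in FR3, and between 5.99 and 8.25 CPM in the other 8 pools. High and low pools came from both sides. The 4 pools highest in Nr1d1 were FR1, FR2, FR3 and ML1, the last labelled male but low in Y-linked RNA, and all 4 were low in it, as were FL2 and FL3, which had 7.69 and 8.25 CPM of Nr1d1. The 5 pools lowest in Per3 (MR3, FL1, ML3, MR1 and MR2) were all high in Y-linked RNA, FL1 against its label, while ML2, also high in it, had 85.0 CPM of Per3. The part of sex in this spread was not tested beyond the labelled comparison and its repeat without ML1 and FL1.

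**Figure D4:**
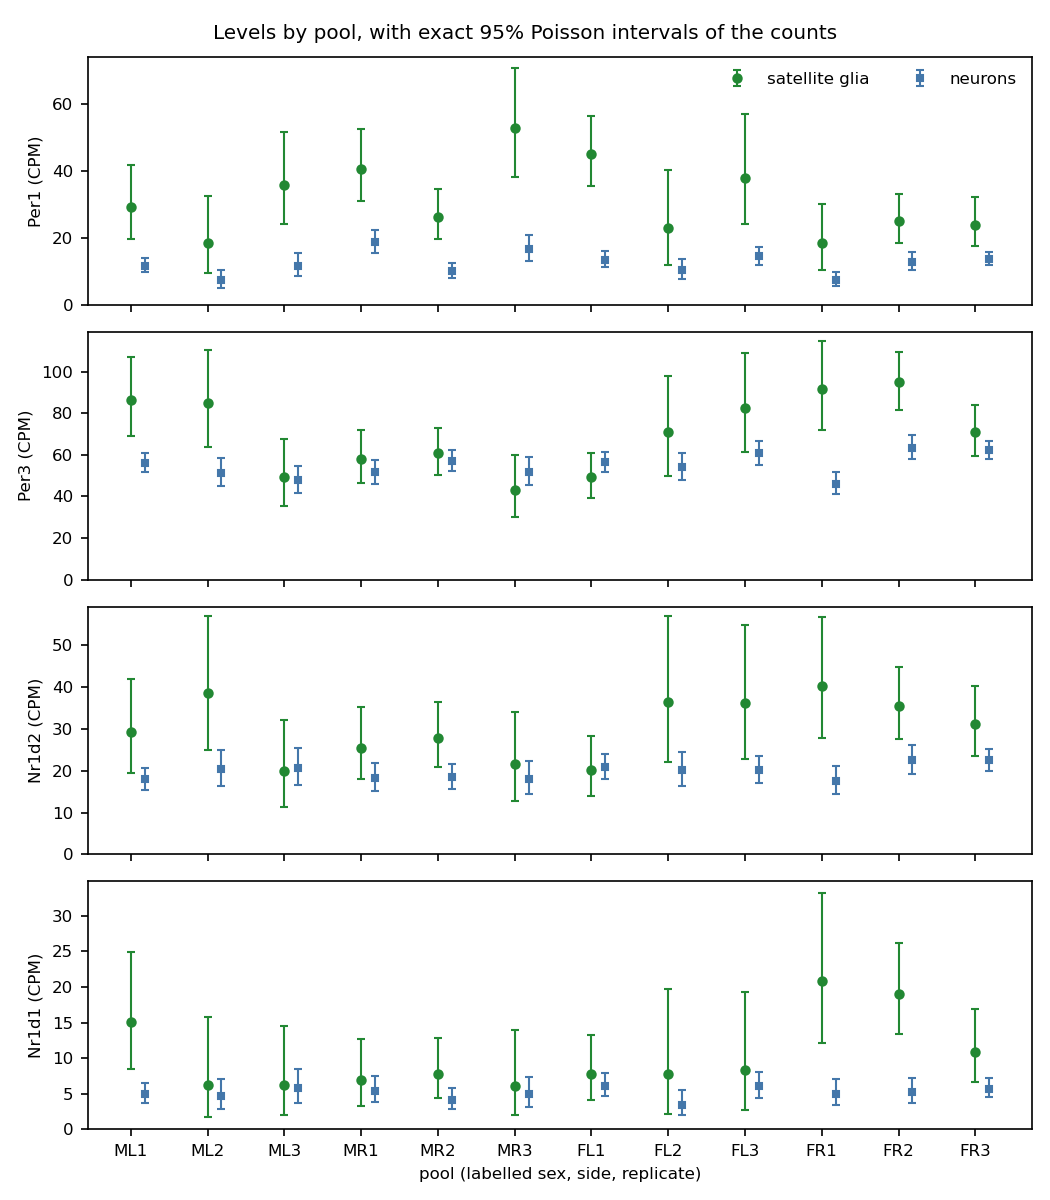
Level (CPM, vertical axes from 0) of Per1, Per3, Nr1d2 and Nr1d1 in satellite glia (circles) and neurons (squares) of each of the 12 pools, with exact 95% Poisson intervals of the counts. In satellite glia Per1 is highest in MR3 at 52.7 CPM, where Per3 is lowest at 43.2 CPM.

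Per1 was the only clock gene with a called relation between its neuronal and satellite glia levels over pools. Across the 12 pools, Pearson's r between log2 CPM in neurons and in satellite glia was 0.83 (permutation p = 0.00089, adjusted over the 9 genes 0.00801) and Spearman's rho 0.78 (permutation p = 0.00403, adjusted 0.0363). Leaving out ML2 and FR1, the pools farthest from the median, gave r = 0.68. Within the 6 left pools, which share no rats, r was 0.91, and within the 6 right pools 0.84. It lay between 0.78 and 0.89 with each pool left out in turn and kept the call. For the other 8 genes the relation was not called, with r of 0.46 for Per2, 0.41 for Cry2, 0.26 for Per3, 0.13 for Dbp, 0.05 for Nr1d2, 0.04 for Nr1d1, -0.29 for Cry1 and -0.38 for Clock (smallest adjusted permutation p 0.509). Clock and Nr1d1 in neurons, and Cry1, Cry2 and Clock in satellite glia, had no spread beyond counting. Dbp had 53 UMIs in satellite glia. In these genes a relation could hardly be seen. The relation was not computed over all genes, so no background share is given. As the summed neuron markers in satellite glia were 81.9% of their level in neurons, shared RNA between the classes was present in these sums, and its part in the Per1 relation was not tested.

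Within satellite glia, 36 pairs of clock genes were compared over the 12 pools, an analysis added after the data were seen, and 2 passed. Per3 and Nr1d2 moved together (r = 0.90, permutation p = 8e-05, adjusted 0.00288; rho = 0.80, permutation p = 0.00243, adjusted 0.0437). The value was 0.855 without MR3 and FL1, 0.88 within left and 0.97 within right pools, and between 0.89 and 0.94 with each pool left out. Per1 and Nr1d2 moved in opposite directions (r = -0.80, permutation p = 0.00248, adjusted 0.0446; rho = -0.81, permutation p = 0.00212, adjusted 0.0437), with r of -0.67 without MR3 and FL1, -0.72 within left and -0.94 within right pools. That call was fragile: it was lost in 10 of the 12 single left-out pools, with r between -0.91 and -0.76 over all of them, and without ML1 and FL1 (r = -0.76, adjusted permutation p = 0.164). Per1 and Per3 (r = -0.76, adjusted permutation p = 0.0677) and Per3 and Nr1d1 (r = 0.71, adjusted permutation p = 0.084) missed the threshold. In neurons, 0 of 36 pairs passed and 4 had an unadjusted permutation p under 0.05, the smallest being that of Per1 and Per2 (r = 0.71, adjusted 0.362).

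**Figure D5:**
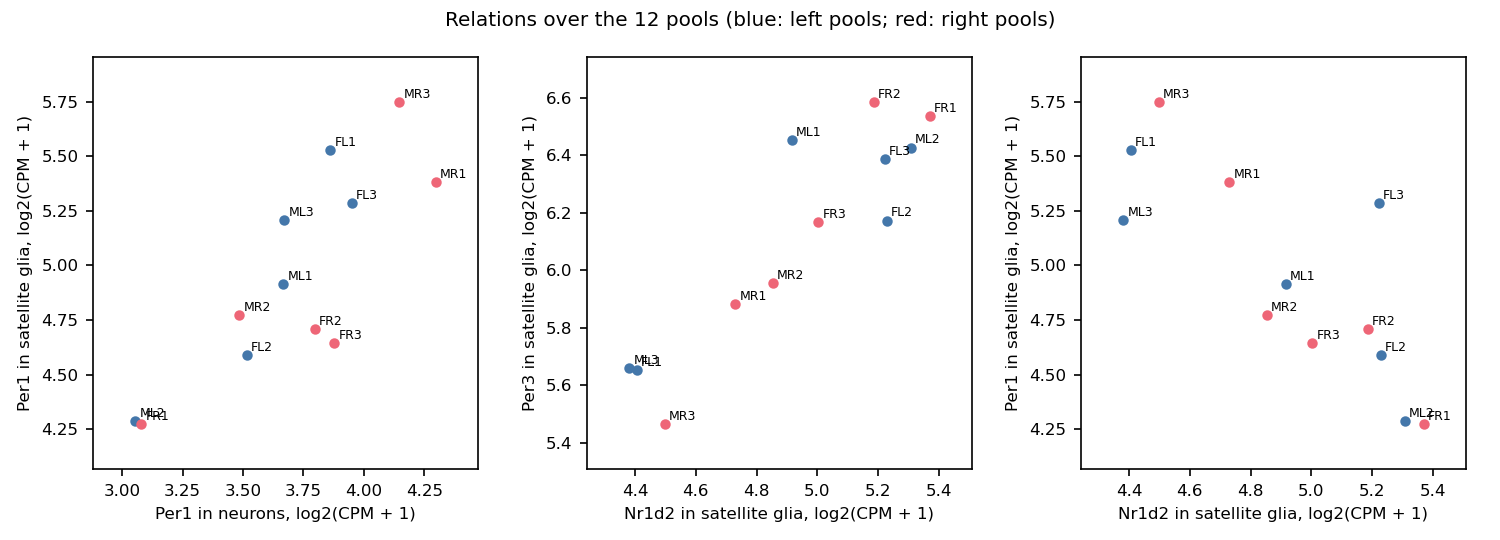
Relations over the 12 pools, each axis in log2(CPM + 1), blue for left and red for right pools: Per1 in satellite glia against Per1 in neurons (r = 0.83), Per3 against Nr1d2 in satellite glia (r = 0.90) and Per1 against Nr1d2 in satellite glia (r = -0.80). Pools of both sides are spread along each relation.

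Other measures of the satellite glia sums were set beside this spread, 21 relations in all, and none had an adjusted permutation p under 0.05 (smallest 0.567). Per3 was lower where the summed neuron markers were higher (r = -0.63, permutation p = 0.027, adjusted 0.567; rho = -0.59; -0.65 without the 2 farthest pools). For Per1 that relation was r = 0.46 (0.74 without the 2 farthest pools) and for Nr1d2 -0.44. The part of neuronal RNA in the spread of these genes was not tested.

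The genes whose pattern over the 12 satellite glia sums was most like each clock gene were ranked by r of log2 CPM among 7372 genes with a mean of at least 20 CPM, with no test. For Per3 they were Asap2 (0.92), Nr1d2 (0.90) and Sgcd (0.90), and for Nr1d2 they were Per3 (0.90), Nop58 (0.88) and Rsf1 (0.87). Rora ranked 11th for Per3 (0.83) and 14th for Nr1d2 (0.81), and Tef ranked 17th (0.82) and 26th (0.77). Tef was also 36th for Nr1d1 (0.74). For Per1 the leading genes were Mical2 (0.90), Kcnh6 (0.87) and Cpne9 (0.86). Arntl fell near the opposite end for Per2 (r = -0.80, rank 7364 of 7372) and r was 0.25 for Per1. In neurons, over 7065 genes, Per1 was followed most closely by Hsf1 (0.94), which encodes a heat shock transcription factor, then Atxn2l (0.87) and Rnf44 (0.86), with Per2 at rank 39 (0.71). Per2 led with Arhgef1 (0.87), Dnm2 (0.87) and Plod3 (0.85), Per3 with Gas6 (0.82), Eloa (0.80) and Zmynd8 (0.80), and Cry1 with Usp20 (0.88), Triobp (0.85) and Zfyve1 (0.84). Cry2 led with Gas6 (0.81), Tstd2 (0.78) and Ppp2ca (0.78), and Clock with Fam117b (0.92), Virma (0.91) and Mob3b (0.91). For Nr1d1 they were Jhy (0.85), Ubqln4 (0.84) and Klhl7 (0.84), for Nr1d2 Zdhhc13 (0.89), Smyd2 (0.80) and Slc12a3 (0.78), and for Dbp Mfsd11 (0.86), Lig3 (0.85) and Pnisr (0.84). With so few sums and so many genes, high values are found for nearly every gene, Clock included, whose spread did not exceed counting.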

How the data were processed

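Single-nucleus RNA was measured in 12 pools with a split-pool barcoding kit (Parse Evercode version 2), sequenced as 8 sublibraries that each mix all pools, per the labels. The deposited values are whole-number counts of UMIs per gene and nucleus, made by the authors with tools that include R 4.3.2 and Seurat 4.1.3 on the build mRatBN7.2, per the submitters' processing notes; neither the counting program nor its strand setting is given in the sources used here. Nuclei with under 300 genes (1) or over 5% mitochondrial UMIs (0) and 1 called doublet were left out, and 36739 were kept. The doublet caller thus hardly worked, and doublets were in practice not removed. Nuclei were clustered with scanpy 1.11.5 (2000 variable genes, 30 principal components, 20 neighbours, Leiden resolution 1), leaving out the clock and listed pathway genes, and classes were named from marker lists; the naming rule was settled after the clusters were seen, and 4788 nuclei stayed unnamed. Counts were summed per pool and class. Tests used edgeR 4.0.16 (TMM, filterByExpr, quasi-likelihood) with R 4.3.3 and Benjamini-Hochberg adjustment over all genes tested, with pool as a block between classes and neuron types, and with side and labelled sex as terms within a class. Correlations used log2(CPM + 1) and 100000 permutations, two-sided. The scripts were tested on simulated data. Alternatives were DESeq2 1.42.0, its size factors, no low-count filter, resolutions 0.5 and 2, nuclei of at least 1000 genes, removal of the top 5% of doublet scores, the block, each pool left out, and both pools whose sex genes went against their labels left out. The members and lists were chosen with earlier results of these data known. Named pathway genes were up to 10 with the smallest p among those called in a comparison, or else the 1 with the smallest p. Genes most like a member were the 3 with the highest r. Not analysed here, since no symbol matched, were Nono, Tsc22d3 and Dusp1. Whether left and right pools of the same number hold the same rats is not stated in the sources used here. Correlations of their deviations from group means ran from -0.19 to 0.40 (ML2 and MR2) over 6711 genes. With so few pools per group, they cannot settle this.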

Additional observations from a re-analysis of the deposited data

Results flagged for a closer look

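Of 72 groups of 6 pools (1 gene, 1 class, 1 side), 7 held a pool whose gap to the nearest other pool, divided by the range of the group, was above Dixon's critical value at the 95% level. Chance gives about 1 in 20, or 3.6 groups. In myelinating Schwann cells, MR3 had 112 CPM of Per1 against 36.4 to 58.9 CPM in the other right pools, and FR3 had 261 CPM of Per3 against 131 to 172 CPM. In satellite glia, ML1 had 15.1 CPM of Nr1d1 against 6.18 to 8.25 CPM in the other left pools. In neurons, ML1 had the lowest Nr1d2 of the left pools, 17.9 CPM against 20.1 to 20.9 CPM. In endothelial cells, FL3 had 333 CPM of Clock against 138 to 193 CPM, FR2 had 34.2 CPM of Nr1d1 against 8.11 to 16.3 CPM, and ML1 had 5.52 CPM of Dbp where the other left pools had none. With all others at 0, any Dbp count in ML1 passes this rule. The class held only 8 Dbp UMIs, so that flag carries no weight. The endothelial sums of single pools were as small as 35236 UMIs.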

How the results depend on the processing

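Of 2088 single fold changes and r values recomputed, 1984 kept their direction and side of the threshold or moved by no more than their SE. Of the rest, 42 lost a call, 12 gained one and 49 uncalled values moved further. The 1 called value that reversed was Clock in myelinating Schwann cells without the low-count filter (-0.070). Signs of uncalled values were less stable: among 1492 recomputed fold changes of clock genes not called, 122 had another sign. Without that filter all 9 clock genes were tested among 23259 genes. Of all genes, 10564 were then called in satellite glia and 6268 between myelinating Schwann cells and satellite glia. The number of clock genes called was 3 between the glial classes and 7 in satellite glia. Of the 7, Clock and Cry2 were lower, and Nr1d1 and Dbp had not been tested with the filter. With each pool left out, the counts were 3 to 4 in satellite glia, 5 to 7 in myelinating Schwann cells, 3 to 5 in endothelial cells, 5 to 7 between the 2 glial classes, 1 to 2 in jugular-like against nodose-like neurons (1 without MR2) and 0 for side, sex and their interaction. Pairs called in satellite glia numbered 1 without ML1 and FL1 and 1 to 3 with each pool left out. The replicate block by pool number left 0 clock genes called for side, and the class comparisons without the replicate block gave 3, 6, 4 and 6 called genes and the neuron types 2. Over all genes, calls for sex in neurons numbered 38, against 445 with DESeq2 and 630 without the filter, and for side 21 against 62 and 55. The replicate block gave 3 for side. In myelinating Schwann cells side gave 3 against 1 with DESeq2 and 17 without the filter. Without the filter, satellite glia gave 14 for side and 60 for sex, and endothelial cells 4 and 3, where the main test gave 0. Class comparisons without the filter called 10564, 9673 and 8176 of 23259 genes, against 6798, 6672 and 5731 of 8732 genes with it. The cause was not tested. Dbp and Nr1d1 were limited by depth.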

Other observations

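The 4788 nuclei that no marker list named, 19935998 UMIs in all, held Per1 at 19.7 CPM (exact 95% Poisson interval 17.8 to 21.7) and Per3 at 62.9 CPM (59.4 to 66.4). Dbp was at 2.86 CPM (2.17 to 3.70) from 57 UMIs. These intervals cover counting error only, the nuclei are a mixture, and no comparison was made.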
